A study of Mus musculus with 9 samples.

Results

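GFP High oocytes were compared with GFP Low oocytes, the strongly and the weakly GFP-positive mature eggs of the same reporter mouse line, using the 6 libraries of these groups out of 9 in the series. Libraries entered by their group label, 3 labelled GFP High and 3 labelled GFP Low, while the 8 genes described first were picked with results of these libraries known, so their levels are a description. All groups came from 4-week-old Sycp3CreERT2/+; Rosa26nT-nG/+ females of mixed background, given 5 IU PMSG, then 5 IU hCG 48 h later, and the eggs were taken from the oviduct 13 h after hCG. Cumulus cells were removed with hyaluronidase and each egg was assigned by eye under a fluorescence microscope. The third group, RFP, held eggs without evident GFP and is used here only as a level to set beside the other two.

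Sycp3CreERT2 is, as its name gives it, an allele in which a tamoxifen-inducible Cre recombinase follows the meiotic gene Sycp3. The nT-nG reporter at Rosa26 makes a nuclear red protein, tdTomato, until Cre removes it and a nuclear green protein is made in its place. Every group carried both alleles, so no group without Cre enters the comparison. A GFP High library pooled 15 to 16 oocytes and a GFP Low library pooled 49 to 57, so the number of oocytes per pool and the strength of GFP cannot be told apart. The labels do not say whether the 3 pools of a group came from separate animals, and the spread between them may be partly technical. In pools of eggs, a transcript held by fewer eggs and less of it per egg cannot be told apart either.

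A metaphase II egg has stopped transcription. Its mRNAs were made and stored while the oocyte grew, and are then translated, deadenylated or destroyed on a schedule that runs through ovulation and fertilisation. Among the messages in which the 2 groups lay apart here, Nfkbia encodes the inhibitor that holds NF-kB transcription factors in the cytoplasm and is itself a classical NF-kB target gene. Med31, Sub1 and Ctr9 belong to the machinery of RNA polymerase II, Tmed9 to transport between the endoplasmic reticulum and the Golgi, Samm50 to the mitochondrial outer membrane, Mapre1 to growing microtubule ends, and Oosp1 to the proteins that the oocyte secretes.

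The promoter of Nfkbia is shown because Nfkbia had the smallest p of all genes in this comparison and because its promoter holds the binding motif of the factor its protein restrains. RefSeq sequences of 250 bases before to 50 bases after the transcription start (GRCm38.p6) were matched for 7 of the 8 genes just named, with none for Ctr9. The NF-kB consensus motif was searched on both strands, and capitals mark the match, which reads on the strand opposite to the gene and runs from -29 to -20 relative to the transcription start.

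Nfkbia promoter, chr12:55492598-55492897, minus strand: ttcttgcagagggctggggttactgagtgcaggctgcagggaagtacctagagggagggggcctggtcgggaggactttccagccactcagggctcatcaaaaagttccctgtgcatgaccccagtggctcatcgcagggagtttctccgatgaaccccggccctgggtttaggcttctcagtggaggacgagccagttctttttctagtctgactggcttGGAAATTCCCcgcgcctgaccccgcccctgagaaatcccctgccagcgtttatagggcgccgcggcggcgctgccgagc

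This was the 1 match in the Nfkbia window, and the windows of Med31, Sub1, Tmed9, Samm50, Mapre1 and Oosp1 held 0. Of 32851 promoter windows of the same length, 8.46% held at least 1 match. A match is a description of the letters, not evidence of binding.

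Library totals lay between 22223961 and 27236006 counts in GFP High and between 19381677 and 27746256 in GFP Low. Levels are given as CPM, counts scaled to library size with TMM factors over the 9 libraries. The oocyte markers Npm2, Nlrp5, Gdf9 and Zp3 stood at 226.8 CPM or more in every library, and blood and immune markers summed to 1.22 to 1.39 CPM in GFP High against 0.831 to 1.42 in GFP Low. Cumulus and granulosa markers summed to 135.6 to 245.3 CPM in GFP High against 157.4 to 182.8 in GFP Low, of which Nr5a2 alone made 100.8 to 157.2 CPM. Of the 27 markers in this list, 15 were tested, and 2, Amhr2 and Pgr, had 0 counts in all 6 libraries. Cyp19a1, a tested member, stood at 18.1, 6.85 and 7.38 CPM in GFP High against 12.2, 11.1 and 17.7 in GFP Low. Cumulus matrix genes stood out in 1 library of each group: Tnfaip6 reached 7.16 CPM in GFP High 1, with 6.63 in GFP Low 1, against 0 to 0.542 in the other 4. Their part in the results was not tested beyond leaving out each library in turn.

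The reporter transcripts followed the labels. eGFP stood at 35.8, 43.8 and 38.9 CPM in GFP High 1, 2 and 3 and at 14.5, 16.9 and 23.9 CPM in GFP Low 1, 2 and 3. The groups did not overlap, and on average GFP Low held 46.6% of the GFP High level (log2 fold change 1.11, SE 0.22). The exact two-sided permutation p was 0.1, the smallest that 3 against 3 libraries allow. For tdTomato the GFP High libraries held 2, 0 and 2 counts, the GFP Low libraries 16, 20 and 35. A floor of 3 counts was set, 0.134 CPM in the GFP High library with the highest floor. The GFP Low mean of tdTomato was 7.08-fold this floor. This floor covers counting error only. The ratio takes the GFP Low mean as exact, so it is no lower limit of the difference. By the fit, the tdTomato log2 fold change of GFP High over GFP Low was -4.01 (SE 1.56, unadjusted 95% interval -7.48 to -0.54). In the authors' FPKM values, which are per length, eGFP averaged 55.2 in GFP High against 25.4 in GFP Low, and tdTomato 0.653 in GFP Low. GFP Low pools thus held both reporter messages, with more reads of eGFP. In RFP eggs tdTomato was also scarce, at 3.57, 2.50 and 1.71 CPM. The levels of the 2 messages therefore do not give the share of eggs in which Cre had acted. Sycp3, the gene after which the Cre allele is named, overlapped, with 15.2, 9.36 and 11.4 CPM against 12.2, 12.4 and 18.3, and the Rosa26 transcript Gt(ROSA)26Sor had 0 counts in all 6 libraries.

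Across the transcriptome the eggs of both groups were close. Among 14785 genes, 0 (0%) had an adjusted p under 0.05 in edgeR's quasi-likelihood test with Benjamini-Hochberg adjustment, and 558 (3.77%) had an unadjusted p under 0.05, 274 of them higher and 284 lower in GFP High. The lowest adjusted p was 0.998, the value of eGFP too, and no gene named below was under it. DESeq2 at default settings called 4 genes, Nfkbia, eGFP, Gm24270 and Tex13c3, the same 4 that carry an adjusted p under 0.05 in the authors' deposited table, while limma-voom called 0. The median log2 fold change over all genes tested was -0.00. TMM scaling centres this median, so it is no measure of how close the groups were. Among the 6060 genes at 20 CPM or more, 97.6% had a 95% interval of the log2 fold change that lay within -1 and 1, and 90 had a log2 fold change beyond 0.5 in either direction. Only 4 lay beyond 1 in either direction, eGFP, Nfkbia and the processed pseudogenes Gpx4-ps2 and Rpl19-ps11. Below 20 CPM the median standard error of the log2 fold change was 0.673 against 0.148 above it. Differences in scarce messages were thus not detectable at this replication unless very large. Above 20 CPM the quasi-likelihood test did not call eGFP either, at 2.16-fold, so 0 calls are no evidence that levels were equal.

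A gene was called apart where all 3 GFP High libraries lay on 1 side of all 3 GFP Low libraries. By this description 1731 of the genes tested were apart (11.7%), with GFP High above in 664 (4.49%) and below in 1067 (7.22%). Among the 7707 genes at 10 CPM or more the share was also 11.7%, with 374 above and 527 below. These shares are the background for each count of genes lying apart given below.

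**Figure D1:**
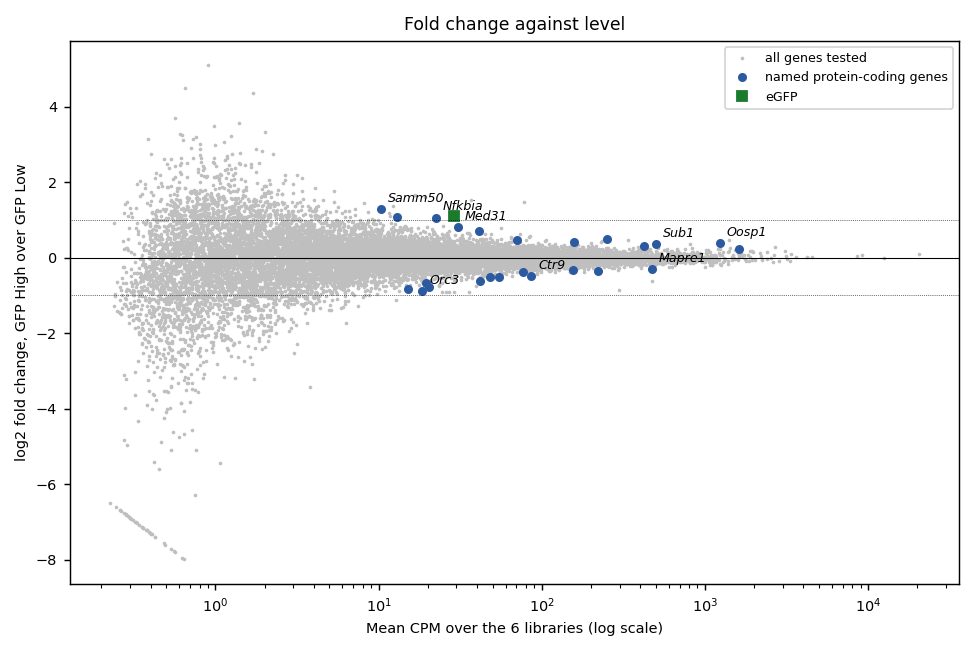
Each grey point is 1 of the 14785 genes tested, with its mean level over the 6 libraries (CPM, log scale) on the horizontal axis and the log2 fold change of GFP High over GFP Low on the vertical axis; dotted lines mark 1 and -1, blue points the 24 protein-coding genes named by rule and the green square eGFP. The cloud is narrow at high levels and widens below 20 CPM, where the median standard error was 0.673.

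Nfkbia (ENSMUSG00000021025, chromosome 12, 55489410 to 55492647, minus strand, GRCm38) had the smallest p. It stood at 29.6, 32.7 and 28.6 CPM in GFP High 1, 2 and 3, and at 14.7, 14.4 and 14.7 CPM in GFP Low 1, 2 and 3. Replicates were tight in both groups, and the level in GFP High was 2.09-fold (95% interval 1.57 to 2.77, log2 fold change 1.06, SE 0.18). Here and below, intervals of single genes are not adjusted for the number of genes tested. The first-named genes were picked with these values known, so a gap beyond the spread or an interval that excludes equal levels is no test of them. Its adjusted p over all genes was 0.998 in edgeR's quasi-likelihood test and 0.000723 in DESeq2. In RFP eggs Nfkbia stood at 19.6, 21.04 and 13.0 CPM, between the GFP groups in 2 libraries and below both in the third. Leaving out any single library gave log2 fold changes from 1.00 to 1.09.

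The remaining parts of the NF-kB pathway did not share the pattern of Nfkbia. Of 16 tested members of a list of NF-kB subunits, inhibitors and kinases, 0 were called, 1 lay apart (Nfkbia), 10 had positive and 6 negative log2 fold changes, and the median was 0.06. Nfkbib, a second inhibitor of the same family, stood at 40.5, 69.6 and 56.7 CPM in GFP High against 47.3, 60.7 and 55.5 in GFP Low, with complete overlap. Rela, the transactivating subunit, stood at 51.5 ± 6.85 and 47.7 ± 2.63 CPM (SD, n = 3). Otulin, a deubiquitinase that restrains the pathway, had a log2 fold change of 0.44 (SE 0.28), and Nfkb1, which encodes the p50 precursor, one of -0.56 (SE 0.46) at 2.46 to 6.14 CPM.

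The transcription machinery held messages on both sides. Med31 (ENSMUSG00000020801, chromosome 11, 72211724 to 72215592, minus strand), a small subunit of the middle module of Mediator, stood at 40.2, 40.4 and 35.5 CPM in GFP High against 18.7, 23.6 and 24.7 CPM in GFP Low. Every GFP High library lay above every GFP Low library, at 1.74-fold (95% interval 1.33 to 2.30). The annotation places 4930563E22Rik over Med31 on the opposite strand, and reads of overlapping genes cannot be told apart without stranded counting. This limit holds also for other genes named below with such an overlap, among them Syce2, Klhdc2, Papolg, Copa and Supt6. Where the overlap is on the same strand, as for Dse, Trim68, Eif4a1, Gtf2a1, Tmed10 and Cnot2, stranded counting would not separate the reads either. RFP libraries were split, with 46.8 CPM in RFP 1, above all GFP High libraries, and 22.2 and 20.9 in RFP 2 and 3, inside the GFP Low range.

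Of 32 tested Mediator subunits, 16 had positive and 16 negative log2 fold changes, with a median of -0.01. The groups were apart with GFP High above in 2, Med31 and Med11, and below in 2, Med1 and Med23. Med11, a head-module subunit, stood at 41.5, 51.1 and 35.8 CPM against 31.3, 28.1 and 22.1 (log2 fold change 0.66, SE 0.20). Med23, a tail-module subunit, went the other way with 86.3, 73.1 and 76.3 CPM against 89.9, 95.01 and 97.5 (log2 fold change -0.25, SE 0.11). For Med1 the groups were separate by a narrow margin, 83.2 ± 1.74 against 87.8 ± 1.86 CPM (SD, n = 3).

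Sub1 (ENSMUSG00000022205, chromosome 15, 11981339 to 11996983, minus strand), the coactivator PC4 that binds single-stranded DNA, was among the abundant messages. It stood at 540.1, 618.2 and 529.2 CPM in GFP High against 415.0, 465.4 and 437.9 in GFP Low. The difference was small, at 1.29-fold (unadjusted 95% interval 1.13 to 1.47). RFP libraries were spread from 369.9 to 568.0 CPM, overlapping both groups. In the list of 42 RNA polymerase II start and elongation factors, 3 lay above in GFP High (Sub1, Gtf2a2 and Mnat1), 3 lay below (Gtf2a1, Supt6 and Gtf2h4), and the median was 0.03. The paired subunits of the initiation factor TFIIA lay on opposite sides. Gtf2a1, its large subunit, had a log2 fold change of -0.27 (SE 0.10), and Gtf2a2, its small subunit, one of 0.16 (SE 0.10). Gtf2h4 was nearly absent, at 0 to 0.716 CPM in GFP High against 0.883 to 2.00 in GFP Low.

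Ctr9 (ENSMUSG00000005609, chromosome 7, 111028951 to 111056377, plus strand), the scaffold of the Paf1 elongation complex, was the lower counterpart. It stood at 70.4, 70.3 and 74.5 CPM in GFP High against 100.9, 104.1 and 97.7 CPM in GFP Low. By the fit, the GFP High level was 0.716 of the GFP Low level (95% interval 0.608 to 0.843, log2 fold change -0.48, SE 0.11). Replicate SDs were 2.37 CPM in GFP High and 3.22 CPM in GFP Low. RFP eggs stood at 110.3, 97.8 and 92.1 CPM, above, within and below the GFP Low range and all above GFP High. Of the 6 tested subunits of the complex, 5 had negative log2 fold changes and the median was -0.16, yet only Ctr9 lay apart. The others were Paf1 at -0.15 (SE 0.11), Leo1 at -0.15 (SE 0.12), Rtf1 at -0.16 (SE 0.09) and Cdc73 at -0.27 (SE 0.26), all with overlapping groups, and Wdr61 was at 3.04 CPM or less.

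**Figure D2:**
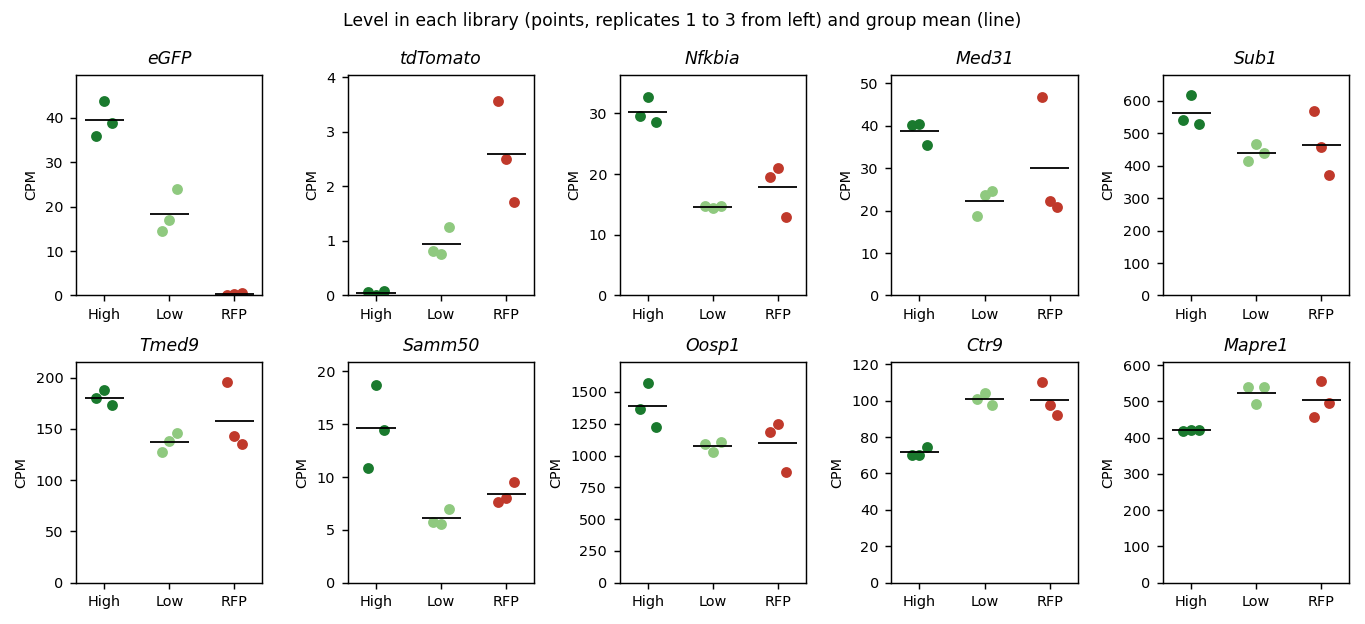
Each panel plots 1 gene, with points for the 3 libraries of GFP High, GFP Low and RFP, replicates 1 to 3 from left to right, a line at the group mean, and CPM on a vertical axis that starts at 0. In each panel all GFP High points lie on 1 side of all GFP Low points; the gap is widest relative to the spread for Nfkbia and Ctr9, and RFP 1 lies above all GFP High libraries for Med31 and Tmed9.

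In the secretory pathway, Tmed9 (ENSMUSG00000058569, chromosome 13, 55573732 to 55597697, plus strand), a p24 cargo receptor that cycles between the endoplasmic reticulum and the Golgi, stood at 180.4, 187.4 and 173.2 CPM in GFP High against 127.5, 138.3 and 146.1 in GFP Low. Every GFP High library was above every GFP Low library, at 1.32-fold (95% interval 1.14 to 1.53). RFP 1 stood at 195.9 CPM, above every GFP High library, while RFP 2 and 3 stood at 143.0 and 135.3, within the GFP Low range. Tmed2, another p24 receptor, was also above in GFP High with 166.9, 205.0 and 209.4 against 154.6, 158.5 and 165.2 CPM (log2 fold change 0.29, SE 0.11). Tmed10, their usual partner, overlapped (0.14, SE 0.11).

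Of 38 tested p24 receptors and COPI and COPII coat genes, 24 had positive and 14 negative log2 fold changes, with a median of 0.05. Those above in GFP High were 4 (Tmed2, Tmed9, Sec23b and Cope) and 1 lay below (Copa). Copa, the largest COPI coatomer subunit, stood at 64.9, 58.1 and 69.0 CPM in GFP High against 101.0, 80.0 and 74.2 in GFP Low (log2 fold change -0.40, SE 0.15). Cope, another coatomer subunit, had 0.56 (SE 0.28), and Sec23b, of the COPII inner coat, had 0.87 (SE 0.50) at 7.01 CPM or less. Single libraries carried much of these: Cope was 0.24 without GFP High 2, Sec23b 0.49 without GFP High 1 and Copa -0.26 without GFP Low 1.

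Samm50 (ENSMUSG00000022437, chromosome 15, 84192241 to 84217267, plus strand), the channel that inserts beta-barrel proteins into the mitochondrial outer membrane, had the largest fold of the group and the fewest reads. It stood at 10.9, 18.7 and 14.5 CPM in GFP High against 5.75, 5.56 and 6.93 in GFP Low, on 299 to 461 and 112 to 192 counts. GFP High was above throughout, at 2.42-fold (95% interval 1.53 to 3.84), and the GFP High libraries were also spread more widely than those of GFP Low. RFP stood at 7.60, 8.04 and 9.50 CPM, between the groups in each library. Gm49513 overlaps Samm50 on the same strand in the annotation. Its partners in the sorting complex did not follow: Mtx1 had a log2 fold change of -0.41 (SE 0.40) with overlapping groups. Of 20 tested genes for outer membrane import and cristae organisation, 11 were positive and 9 negative with a median of 0.01, and GFP High lay above in 2, Samm50 and Minos1 (0.24, SE 0.14; 0.15 without GFP Low 2). Of the 15 mitochondrially encoded genes, 0 lay apart, and the median was 0.02.

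Mapre1 (ENSMUSG00000027479, chromosome 2, 153741274 to 153773310, plus strand) encodes EB1, the protein that recruits others to growing microtubule ends. It was nearly constant in GFP High, at 419.4, 420.4 and 420.7 CPM, and stood at 538.4, 492.9 and 540.3 CPM in GFP Low. The GFP High level was 0.807 of the GFP Low level (unadjusted 95% interval 0.722 to 0.903), a modest difference. RFP eggs stood at 456.3, 557.1 and 496.1 CPM, above all GFP High libraries. Mapre2, the next family member, overlapped (log2 fold change 0.04, SE 0.11).

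Of 28 tested microtubule plus-end and spindle genes, 11 were positive and 17 negative with a median of -0.05. GFP High lay below in 4, Mapre1, Clasp1, Tacc1 and Tubgcp3, and above in 2, Slain2 and Tubg1. Clasp1, which stabilises plus ends, had a log2 fold change of -0.38 (SE 0.15) and Tacc1 one of -0.23 (SE 0.10). Tubgcp3, of the gamma-tubulin ring, had -1.27 (SE 0.70) at 5.09 CPM or less. Tubg1, gamma-tubulin itself, had 0.18 (SE 0.12), and Slain2 had 0.11 (SE 0.08). Without GFP High 2 these were -0.79 for Tubgcp3, 0.12 for Tubg1 and 0.05 for Slain2. Summed over the 28 genes, the level was 7357 to 7465 CPM in GFP High against 7703 to 7873 CPM in GFP Low, without overlap. This sum includes Mapre1, which was picked with its values known. With the length adjustment described below, Mapre1 was at -0.26, Clasp1 at -0.31, Tacc1 at -0.17 and Tubgcp3 at -1.23. Tubg1 was then at 0.13 and Slain2 at 0.16.

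Oosp1 (ENSMUSG00000041857, chromosome 19, 11667460 to 11691150, minus strand), an oocyte-secreted protein, was the most abundant of the 8 messages per length, at a mean FPKM in the authors' tables of 1427 in GFP High against 1091 in GFP Low. It stood at 1363, 1573 and 1221 CPM in GFP High against 1088, 1025 and 1110 in GFP Low. All GFP High libraries were above, at 1.30-fold (95% interval 1.13 to 1.49), and the GFP High SD of 177 CPM was larger than the 44.0 CPM of GFP Low. RFP stood at 1188, 1244 and 872.0 CPM, overlapping both groups. Its family members Oosp2 and Oosp3 had log2 fold changes of 0.25 (SE 0.20) and 0.25 (SE 0.11) with overlapping groups, or 0.14 and 0.15 with the length adjustment described below. Without GFP High 1, Oosp2 was at 0.02.

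Of 13 tested oocyte-secreted and zona pellucida genes, all 13 had positive log2 fold changes, from 0.01 to 0.38 with a median of 0.17. GFP High lay above in 2, Oosp1 and Gdf9. Gdf9, the growth factor by which the oocyte instructs its cumulus cells, stood at 1627, 1853 and 1728 CPM against 1502, 1445 and 1575 (log2 fold change 0.21, SE 0.07). Bmp15, its close relative, did not differ in this way, at 790.6, 854.1 and 814 CPM in GFP High against 807.3, 837.3 and 800.6 in GFP Low. Summed over the list, GFP High stood at 5603 to 6317 CPM and GFP Low at 5072 to 5380. The list and this sum include Oosp1, which was picked with its values known. With the length adjustment described below the median was 0.10.

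Among 33 tested oocyte genes, 24 were positive and 9 negative with a median of 0.08. GFP High lay above in 4, Mos, Zar1, Dppa3 and Rfpl4, and below in 1, Nlrp4f. Mos, the kinase that holds the egg at metaphase II, stood at 85.0, 90.6 and 76.0 CPM in GFP High against 65.1, 61.6 and 62.1 in GFP Low (log2 fold change 0.42, SE 0.12). The oocyte linker histone H1foo had 0.46 (SE 0.13), but GFP High 3 at 1283 CPM lay below GFP Low 2 at 1297 CPM, and without GFP High 2 the log2 fold change was 0.29. Zar1, an RNA-binding protein that stores maternal messages, had 0.15 (SE 0.07), Dppa3 0.18 (SE 0.07), Rfpl4 0.19 (SE 0.08) and Nlrp4f -0.11 (SE 0.06). Zar1 shares 96.4% identity over 2497 bases with Gm42668, and Dppa3 98.2% over 451 bases with Dppa3-ps. Reads of both may therefore be divided with these copies.

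Genes that store and remove maternal mRNA had 11 of 30 members positive, 19 negative and a median of -0.02. GFP High lay above in 3, Pabpn1l, Papolg and Zar1, and below in 1, Cnot2. Pabpn1l, a poly(A)-binding protein needed for maternal mRNA decay, stood at 258.8, 289.4 and 272.0 CPM against 237.5, 218.1 and 232.2 (log2 fold change 0.26, SE 0.08). Btg4, the adaptor that brings the CCR4-NOT deadenylase to maternal messages, overlapped between groups (0.26, SE 0.10; 0.14 without GFP High 2). Cnot2, a scaffold subunit of that deadenylase, had -0.10 (SE 0.09), and the poly(A) polymerase Papolg 0.18 (SE 0.11).

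Meiotic prophase genes, the class to which the Cre driver belongs, had 7 positive and 11 negative of 18 tested, with a median of -0.07. Syce2, which lay above in GFP High, of the central element of the synaptonemal complex, stood at 419.7, 421.3 and 333.4 CPM against 219.7, 328.3 and 310.7 (log2 fold change 0.46, SE 0.15). Hormad1, a protein of the meiotic chromosome axis, also lay above in GFP High, at 3.38, 3.89 and 6.53 CPM against 3.13, 3.18 and 2.74 (log2 fold change 0.62, SE 0.48). Without GFP High 3 the log2 fold change of Hormad1 was 0.27, and without GFP Low 1 that of Syce2 was 0.30. The transcript of Hormad1 shares 97.7% identity over 922 bases with Gm15529, so its reads may be divided. RFP 1, which was high for Med31 and Tmed9, also had the highest Syce2 of its group, 384.1 CPM against 237.6 and 230.9.

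Response lists gave few members apart. Of 13 tested p53 target genes, 8 were positive and 5 negative (median 0.06), and GFP High lay above in 2, Ccng1 (0.99, SE 0.43) and Plk2 (0.76, SE 0.47), each at 8.145 CPM or less. Of 9 tested estrogen and progesterone response genes, GFP High lay above in 1, Greb1 (0.53, SE 0.57), at 3.36 CPM or less in the GFP libraries. Of 15 tested cumulus and granulosa markers, GFP High lay above in 1, Krt8, at 8.72, 7.18 and 9.94 CPM against 4.16, 3.57 and 5.56 (log2 fold change 0.97, SE 0.36). Krt8 is also a gene of simple epithelia and early embryos, and the follicle markers of the same list, such as Fshr and Inha, overlapped or were not tested.

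**Figure D3:**
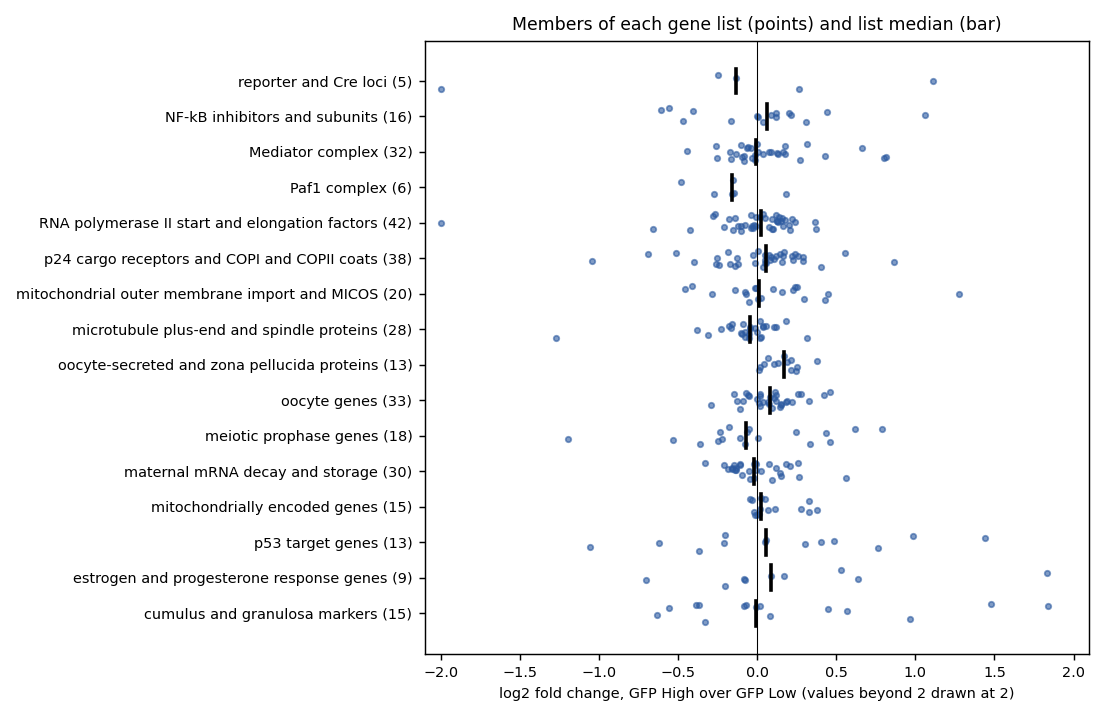
Each row is 1 gene list with its number of tested members in brackets; lists with fewer than 5 tested members are not drawn; points are the members' log2 fold changes of GFP High over GFP Low, with values beyond 2 in either direction drawn at 2, and the black bar is the list median. Medians of the lists drawn lie between -0.16 (Paf1 complex) and 0.17 (oocyte-secreted and zona pellucida proteins). The latter list, which includes Oosp1, picked with its values known, is the one drawn with all tested members on 1 side of 0.

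Beyond the 8 genes, the rule for naming genes added protein-coding genes apart at 10 CPM or more with the smallest p. On the higher side these were Snrnp27, Dse, Nhej1, Gm10131, Obox1 and Klhdc2. Snrnp27, a protein of the spliceosomal tri-snRNP, stood at 440.4, 476.1 and 478 CPM in GFP High against 384.3, 359.8 and 389.6 in GFP Low. Dse, the epimerase that makes dermatan sulfate, had a log2 fold change of 0.47 (SE 0.12) and Nhej1, a factor of DNA end joining, one of 0.69 (SE 0.18). Obox1, an oocyte homeobox gene, had 0.49 (SE 0.13), and its transcript shares 98.8% identity over 1464 bases with Obox2, so reads may be divided between them. Klhdc2, a substrate receptor of a ubiquitin ligase, differed by 0.22 (SE 0.06) between the GFP groups, and RFP eggs had more than either, at 2052, 2032 and 1828 CPM against 1419 to 1798 in the 6 GFP libraries.

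The lower side held Hdgf, Eif4a1, Orc3, Nbn, Mapk9, Mbip, Eif2s3x, Trim68, Ndel1 and Fubp3 next to Ctr9 and Mapre1. Hdgf, a chromatin-binding growth factor, stood at 44.1, 43.9 and 46.3 CPM in GFP High against 60.9, 66.2 and 64.7 in GFP Low, with tight replicates on both sides. Orc3, of the origin recognition complex, had the largest fold of this side at 13.9, 9.69 and 15.3 against 23.0, 24.8 and 24.6 CPM (log2 fold change -0.88, SE 0.23). Nbn, of the MRE11 complex that senses DNA breaks, stood at 14.9, 15.7 and 14.3 against 20.9, 29.0 and 27.7 CPM. Mapk9, the stress kinase JNK2, had -0.52 (SE 0.15), Mbip -0.63 (SE 0.18) and Trim68, a ubiquitin ligase, -0.84 (SE 0.24). Ndel1, a regulator of dynein, had -0.33 (SE 0.09) and the nucleic-acid-binding protein Fubp3 -0.66 (SE 0.19). For Orc3, Nbn, Ndel1 and Fubp3 the RFP means were 24.9, 26.4, 173.5 and 24.1 CPM, beside GFP Low means of 24.1, 25.9, 173.2 and 24.04. For Hdgf, Mapk9, Eif2s3x and Trim68 the RFP means were 61.9, 56.0, 88.2 and 18.9 CPM, beside 63.9, 56.8, 87.2 and 19.4. Eif4a1 and Mbip lay between the groups, at RFP means of 205.9 and 45.5 CPM. Their means were 248.7 and 50.7 in GFP Low and 193.4 and 32.6 in GFP High. The comparisons of GFP High with each of the other groups share the GFP High libraries, so these levels are given side by side only.

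The fold changes varied with gene length, the length that the authors' tables list for each gene. Across 7270 protein-coding genes at 10 CPM or more, the log2 fold change and log2 length had a Pearson r of -0.214, a description across genes that share their libraries. The median log2 fold change went from 0.13 for the 157 genes of up to 1000 bases to -0.06 for the 1210 genes above 9000 bases. Genes of 1000 to 2000 bases lay above in GFP High in 9.23% and below in 3.12%, while those above 9000 bases lay above in 2.07% and below in 10%. The median length was 3414 bases for the 350 genes above, 6119 for the 506 genes below and 4885 for those that overlapped.

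The tilt differed among the GFP High libraries. GFP High 1 and 2 were raised for the shortest genes, by a median of 0.13 and 0.18 against the mean of the 6 libraries, whereas GFP High 3 was at -0.13, GFP Low 1 and 2 at -0.10 each and GFP Low 3 at 0.04. With per-library offsets that remove this trend, r was -0.00 and the number of genes called by edgeR stayed at 0. Nfkbia then had a log2 fold change of 0.99, Med31 0.74, Sub1 0.36, Tmed9 0.39, Samm50 1.33, Oosp1 0.27, Ctr9 -0.43 and Mapre1 -0.26. Mos went to 0.34, Pabpn1l to 0.17, Rfpl4 to 0.12 and Dppa3 to 0.08, while the median of mitochondrially encoded genes went to -0.08. The part of length in the remaining differences was not tested.

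**Figure D4:**
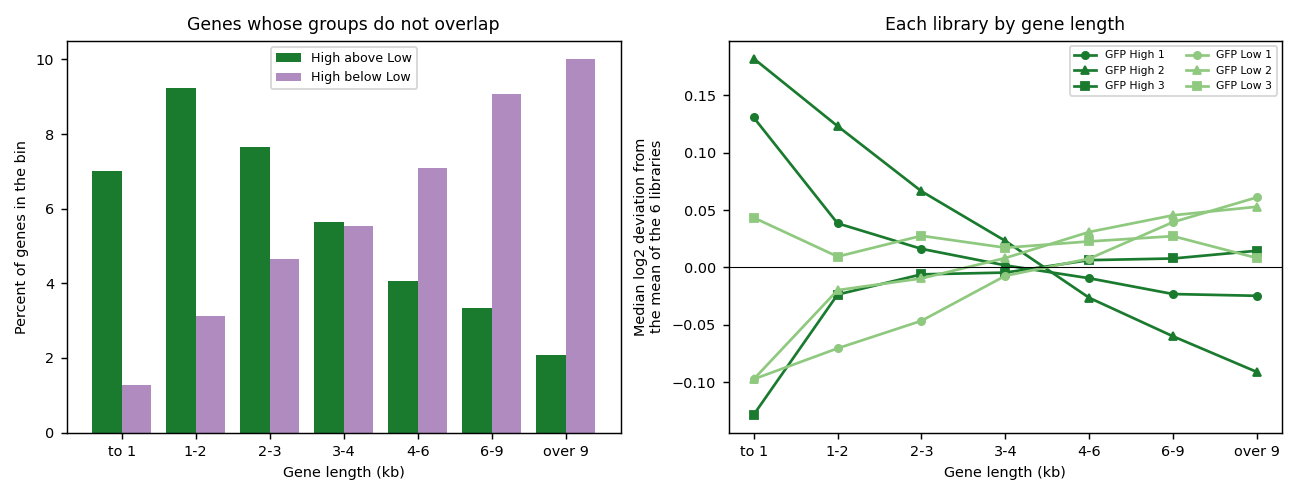
Left: percent of the protein-coding genes in each length bin (kb) for which all GFP High libraries lay above (green) or below (purple) all GFP Low libraries. Right: median log2 deviation of each library from the mean of the 6 libraries in the same bins; GFP High 1 and 2 slope down with length, GFP High 3 is low at the shortest genes, and the share above falls from 9.23% at 1 to 2 kb to 2.07% over 9 kb as the share below reaches 10%.

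Several of the genes lying apart have a near-identical processed copy that the authors counted as a gene of its own, and there the split of reads between parent and copy differed between the groups. The windows below are shown because they hold the only difference, or the first, within the stretch over which parent and copy align; parent transcripts also hold bases outside that stretch. Capitals mark that base, and the sequences are from GENCODE M21 transcripts.

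Eif4a1: aaatacatcaagatGttcgtactggatga
Eif4a-ps4: aaatacatcaagatAttcgtactggatga
Gpx4: tgcatcgtcaccaaCgtggcctcgcaatg
Gpx4-ps2: tgcatcgtcaccaaTgtggcctcgcaatg
Erh: acagcgtgctgtagTgaaccttttgtatg
Gm10131: acagcgtgctgtagCgaaccttttgtatg

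Eif4a1, the helicase of cap-dependent translation, stood at 193 ± 10.7 CPM in GFP High against 249 ± 14.5 in GFP Low (SD, n = 3), with GFP High below throughout. Its copy Eif4a-ps4 went the other way, at 105.5, 105.9 and 91.9 against 77.1, 66.0 and 62.7 CPM. The aligned 1218 bases differ at 1 position. The sum of both was 294 ± 14.3 against 317 ± 17.4 CPM with overlapping groups, and the copy took 34.3% ± 2.05 of it in GFP High, compared with 21.6% ± 1.91 in GFP Low and 31.3% ± 5.64 in RFP.

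Eif2s3x, the gamma subunit of the initiation factor eIF2, and Gm2223 are identical over 1350 bases. Gm2223 took 21.1% ± 4.13 of their sum in GFP High, compared with 7.33% ± 1.69 in GFP Low and 7.25% ± 0.868 in RFP. The sum itself was still below in GFP High, at 85.9, 85.8 and 79.6 against 88.6, 96.4 and 97.3 CPM, a smaller gap than for Eif2s3x alone (66.0 ± 1.45 against 87.2 ± 4.68 CPM).

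Gpx4, the glutathione peroxidase that clears lipid peroxides, had the widest split. Gpx4-ps2, with 99.74% identity to it, took 68.3% ± 5.35 of the sum in GFP High, compared with 30.3% ± 23.0 in GFP Low and 27.9% ± 7.95 in RFP. GFP Low 1, with 25.4 CPM of Gpx4 and 33.1 of the copy, was nearer to GFP High than GFP Low 2 and 3 were. The sum overlapped, at 66.3 to 94.7 CPM in GFP High against 58.5 to 77.6 in GFP Low. For Erh and its copy Gm10131, which the annotation lists as protein coding, the copy took 12.8% ± 3.11 in GFP High against 6.95% ± 0.151 in GFP Low, and the sums overlapped. The values of Eif4a1, Eif2s3x and Gm10131 as single genes are therefore uncertain, as are those of Gpx4 and Gpx4-ps2.

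**Figure D5:**
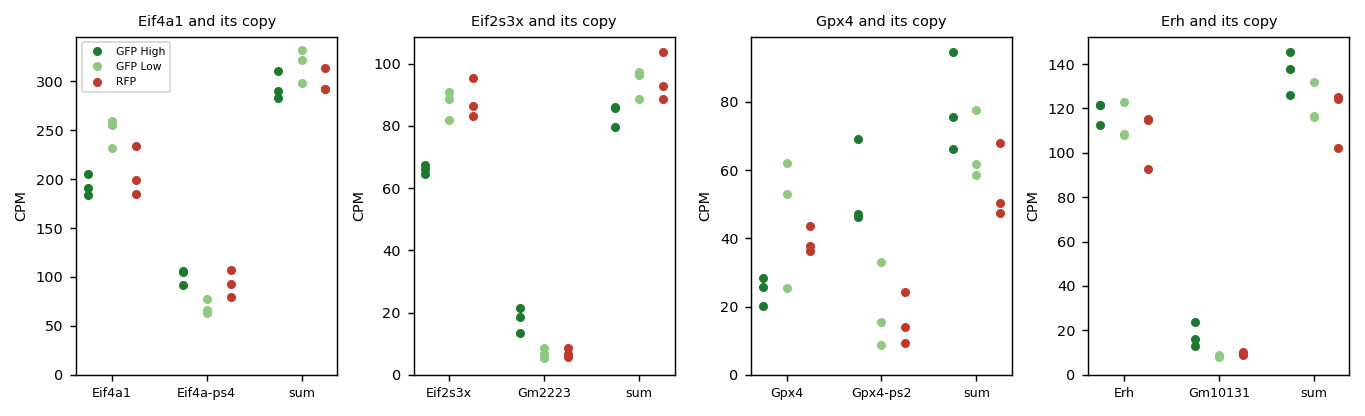
CPM of 4 parent genes, their near-identical copies and the sum of each pair in the 3 libraries of GFP High (dark green), GFP Low (light green) and RFP (red), each panel with a vertical axis from 0. Parent and copy lie on opposite sides for Eif4a1 and Eif2s3x, while the sums of the Eif4a1, Gpx4 and Erh pairs overlap between GFP High and GFP Low.

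Rpl19-ps11, a copy of the ribosomal protein gene Rpl19, rested on single libraries. It stood at 145, 161.5 and 35.2 CPM in GFP High 1, 2 and 3 and at 35.6, 48.0 and 40.3 in GFP Low, so that GFP High 3 lay with GFP Low. Without GFP High 3 it was the 1 gene that edgeR's quasi-likelihood test called (Benjamini-Hochberg adjusted p = 0.0199). Rpl19 itself had 228.1, 236.3 and 318.9 against 310.3, 329.5 and 348.8 CPM. The transcripts of Rpl19-ps11 and Rpl19 share 99.8% identity over 591 bases, so reads may be divided between them. Their values as single genes are therefore also uncertain.

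Of the 4 genes called by DESeq2, Gm24270 and Tex13c3 remain to be described. Gm24270, annotated as a miRNA of 57 bases at chr9:56223715-56223771 on the minus strand within Peak1, stood at 228.2, 152.5 and 251.6 CPM in GFP High against 343.1, 340.6 and 460.3 in GFP Low (log2 fold change -0.85, SE 0.18). It is printed whole because its letters are shared. Gm24270: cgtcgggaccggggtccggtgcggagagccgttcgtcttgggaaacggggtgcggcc. The same 57 bases occur in Gm24245 and in Gm23935, which stood at 17568 to 27406 CPM in these 6 libraries, so the count of Gm24270 depends on how reads common to them were assigned. Tex13c3 was scarce, at 3.78, 2.55 and 4.70 CPM in GFP High against 0.205, 0.307 and 0.578 in GFP Low, which rest on 4 to 16 counts in the latter (log2 fold change 3.32, SE 0.78).

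Replicates differed more within GFP High than within GFP Low. For genes of 1 to 2 CPM the median coefficient of variation was 87.0% in GFP High against 39.7% in GFP Low, and for genes of 32 to 64 CPM it was 16.3% and 8.83%. In each bin of level from 1 CPM upward the SD was larger in GFP High for 70% to 80.1% of genes. Genes detected at 1 CPM or more numbered 12733 ± 312 in GFP High against 12759 ± 132 in GFP Low (SD, n = 3; difference -26.3, exact permutation p = 0.9, two-sided). At 5 counts or more the difference was -1955 genes, with 13773 in GFP High 2, the lowest, and 17041 in GFP Low 2, the lowest of its group (exact permutation p = 0.1). The number of oocytes per pool differs between the groups, and its part in these spreads cannot be told apart from that of GFP.

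The genes that varied most among GFP High libraries showed 2 patterns. Hist1h2al, a histone sequence annotated as a processed pseudogene, reached 86.9 CPM in GFP High 1, with 87.9 in GFP Low 1, but at 0.203 and 0.313 in GFP High 2 and 3 and at 0.433 or less in GFP Low 2 and 3. Those 2 libraries were also the ones with the cumulus matrix genes, and RFP 2, at 135 CPM of Hist1h2al, had 10.9 CPM of Tnfaip6. Tcp11l1 was nearly missing from GFP High 1 alone, at 0.763 CPM against 36.9 and 47.9 in GFP High 2 and 3 and 19.4 to 29.2 in GFP Low. Btn1a1 and Gm26917 ranged from 0 to 37.1 and from 0.324 to 241.7 CPM within GFP High, and neither separated the groups.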

How the data were processed

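Per the submitters' processing notes, reads were handled with fastp, HISAT2 2.0.5, featureCounts 1.5.0-p3 and DESeq2 1.20.0 on mm10; parameters are not given in the sources used here. The authors deposited raw counts per gene, which were the input to every test. They also deposited a normalised signal (count divided by a size factor), not used here, FPKM values, used only for levels between genes, and a log2 fold change and p-values for each gene, quoted only where their table is named.

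The 26570 genes of the table of this comparison were reduced by filterByExpr to 14785 and tested on the 6 libraries with edgeR 4.0.16 (TMM, quasi-likelihood, no covariate; R 4.3.3), checked on simulated data. CPM was scaled over 9 libraries, with 178 genes set to 0 where a table lacked them. Alternatives used DESeq2 1.42.0, limma 3.58.1, other filters and scalings, each library left out, and length offsets, added after seeing the data. GENCODE M21 (GRCm38) held 26553 of the identifiers, 25801 with the same coordinates.

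Members and gene lists were chosen with earlier results of these data known. Named genes were the 8 of the comparison's description and the reporters, the 12 protein-coding genes per direction with the smallest p among those apart at 10 CPM or more, up to 4 members per list, genes called by an alternative, and the 4 most variable in GFP High. List members named because their groups lay apart, and the parent and copy pairs, were chosen after their values were seen. Early embryo genome activation genes (2 tested, 0 apart) and oviduct epithelium markers (2 tested, 0 apart, 5.31 to 11.9 CPM summed in GFP High and 5.26 to 8.70 in GFP Low) complete the lists. Replicates differed by more than sampling noise (chi-square per degree of freedom 13.8 to 57.6), so each library counted as 1. The values of 1 member of the meiotic prophase list are not reported here.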

Additional observations from a re-analysis of the deposited data

How the results depend on the processing

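The number of genes called between GFP High and GFP Low was 0 in edgeR's quasi-likelihood test, 4 in DESeq2 and 16 without the low-count filter, the latter including Nfkbia, eGFP, H1foo, Obox1, Syce2, Gpx4, Gpx4-ps2, Rpl19-ps11 and Gm24270. Leaving out 1 library gave 0 to 1 genes, the 1 being Rpl19-ps11 without GFP High 3. The remaining alternatives gave 0. Same-numbered libraries did not deviate together (correlations 0.101, 0.0736 and -0.0583), and a fit with the replicate block called 0 genes with a lowest adjusted p of 0.200. eGFP passed the threshold in DESeq2 (log2 fold change 1.12) and without the filter (1.10), and ran from 0.962 to 1.33 over the leave-one-out fits. Mapre2 changed sign without GFP High 2 (-0.01) or GFP High 3 (-0.05), with a leave-one-out range of -0.0502 to 0.145. Nfkbib, Nr5a2, Wdr61, Gm23935 and the 4 genes most variable in GFP High, for which the report gives levels only, also changed sign when single libraries were left out. Among the 8 first-named genes the leave-one-out ranges were narrowest for Ctr9 (-0.52 to -0.47) and widest for Samm50 (1.06 to 1.45). Detected genes differed by -26.3 at 1 CPM, -1955 at 5 counts and -3434 at 0.1 CPM. The cause of these changes was not tested. With 3 libraries per group, and GFP High pools of few oocytes, the quasi-likelihood test did not call even eGFP, at 2.16-fold. Its 0 calls therefore do not exclude differences at any level of expression. Below 20 CPM the standard errors were larger still.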
